A study of Homo sapiens with 18 samples.

Results

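The genes described here are the 10 that encode the mTOR complexes and the proteins directly upstream of them: MTOR, RPTOR, RICTOR, MLST8, DEPTOR, AKT1S1, MAPKAP1, TSC1, TSC2 and RHEB. They were chosen by their gene symbols, and each is represented by 1 probe set, so they are 10 of 17687 gene symbols and 10 of 21448 probe sets measured. The group was proposed with the response to cisplatin in these arrays known, including the decline of RPTOR. Cisplatin values of the 10 genes are therefore given as a description, without a p for any gene, and their counts past a threshold only beside the share of all probe sets. Tests are given for the comparisons between transfections, which did not choose the genes.

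The kinase mTOR works in a pair of assemblies that couple growth factors, nutrients and energy to protein synthesis, metabolism and survival, and that are often active in ovarian carcinoma. mTOR complex 1 is built around the scaffold raptor (RPTOR) and holds the inhibitory subunit PRAS40 (AKT1S1), while mTOR complex 2 is built around rictor (RICTOR) and SIN1 (MAPKAP1) and phosphorylates AKT. MLST8 and the inhibitor DEPTOR belong to both. TSC1 and TSC2 form a complex that switches off the small GTPase RHEB, and RHEB bound to GTP activates mTOR complex 1. These functions rest on proteins and phosphorylation, whereas the arrays measured RNA.

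RNA was taken from SKOV-3 cells, an established human ovarian carcinoma line, and hybridised to Clariom S human arrays, 1 array per sample. The cells had been transiently transfected with PEA-15AA (SKOV-3-AA), a form of PEA-15 that lacks its phosphorylation sites, with phosphomimetic PEA-15DD (SKOV-3-DD), or with the empty vector (SKOV-3-EV), and PEA-15 is a small adaptor protein that binds ERK1/2. From 24 h after transfection, cells of each kind received 15 µM cisplatin for 24 h or stayed untreated, which gave 6 groups of 3 arrays, 18 in all. The titles of the 3 untreated SKOV-3-EV samples hold the letters cis, which those of the other untreated samples lack, but their source and treatment labels give medium and a concentration of 0, and they were taken as untreated. Every group, controls included, thus went through transfection, and the transfected cultures may hold cells that did not take up plasmid. Separate cultures for the 3 replicates of a group are not stated in the sources, so a p here reflects the spread among arrays, which may be technical. The authors normalised the signals, so a value is relative to the RNA on its array. A change in cell number or in total RNA per cell is not seen in it. Because whole populations were measured, a shift in which cells survived cannot be told from a change within cells.

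Values are log2 signals as deposited by the authors, a difference of 1 is a change of 2-fold, and the number of arrays limits their precision. The median signal per array was 6.33 to 6.44 in cisplatin-treated and 6.53 to 6.61 in untreated cells. The 95th percentile of 612 negative control features, used here as the level of background, was 6.80 to 7.62 in treated and 6.30 to 6.95 in untreated arrays. Among cisplatin-treated SKOV-3-DD arrays, replicates 2 and 3 stood apart, with root mean square distances of 0.305 and 0.311 from their group mean on the log2 scale, and results that change without them are named. PEA15 signals were 9.99 to 10.42 in SKOV-3-AA, 10.53 to 11.63 in SKOV-3-DD and 10.95 to 11.51 in SKOV-3-EV cells under cisplatin. In untreated cells they were 9.80 to 10.01 in SKOV-3-AA, 9.59 to 12.21 in SKOV-3-DD and 10.06 to 10.39 in SKOV-3-EV cells. The transfected forms were thus not seen as higher PEA15 RNA (limma, adjusted p 0.367 to 1), this probe set gave no check of the labels, and whether its probes lie within the plasmid insert is not known here. Of 8 measured epithelial markers, 6 lay above background in all arrays and MUC16 and WT1 in none. Of 10 measured markers of other cell types, 7 lay at or below background in every array, COL1A1 was above it in 9 arrays, and PTPRC (9.52 to 12.34) and CD68 (11.44 to 12.49) were above it in all. The log2 of the summed signal of these 10 markers was 12.35 to 12.76 in treated and 12.64 to 13.09 in untreated arrays, and its part in the results was not tested.

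The sequence around the start site is printed for the 4 genes whose treated signals all lay below the untreated ones. That of RHEB, whose treated and untreated signals overlapped, is printed for contrast. Among all probe sets 18% lay lower with cisplatin in the same way, and shared control of the 4 genes was not tested. RefSeq promoters of assembly GRCh38.p14, from 250 bases before to 50 bases after the start, were held for 7 of the 10 genes in the table used here. Capitals mark GC boxes (GGGCGG, or CCGCCC on the other strand), the motif named for the factor SP1. The RPTOR window lies at chr17:80544588-80544887 (+ strand), MAPKAP1 at chr9:125707159-125707458 (-), RICTOR at chr5:39074350-39074649 (-), MTOR at chr1:11262502-11262801 (-) and RHEB at chr7:151519846-151520145 (-).
RPTOR: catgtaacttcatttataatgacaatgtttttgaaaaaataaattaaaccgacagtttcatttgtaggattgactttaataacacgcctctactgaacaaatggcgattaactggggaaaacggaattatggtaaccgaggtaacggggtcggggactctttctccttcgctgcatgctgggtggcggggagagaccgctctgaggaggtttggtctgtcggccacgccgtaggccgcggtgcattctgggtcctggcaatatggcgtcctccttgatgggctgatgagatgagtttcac
MAPKAP1: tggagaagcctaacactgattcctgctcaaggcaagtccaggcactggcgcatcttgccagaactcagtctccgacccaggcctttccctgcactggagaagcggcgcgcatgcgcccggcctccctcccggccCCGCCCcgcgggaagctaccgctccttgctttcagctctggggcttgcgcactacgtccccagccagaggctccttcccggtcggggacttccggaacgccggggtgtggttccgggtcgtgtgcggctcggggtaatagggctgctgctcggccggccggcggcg
RICTOR: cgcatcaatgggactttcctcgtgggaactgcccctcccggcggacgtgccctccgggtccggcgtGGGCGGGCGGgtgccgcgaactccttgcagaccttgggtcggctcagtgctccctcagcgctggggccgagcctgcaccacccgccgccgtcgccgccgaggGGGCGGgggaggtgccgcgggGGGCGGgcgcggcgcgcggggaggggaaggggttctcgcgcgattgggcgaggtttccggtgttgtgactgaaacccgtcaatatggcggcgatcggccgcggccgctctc
MTOR: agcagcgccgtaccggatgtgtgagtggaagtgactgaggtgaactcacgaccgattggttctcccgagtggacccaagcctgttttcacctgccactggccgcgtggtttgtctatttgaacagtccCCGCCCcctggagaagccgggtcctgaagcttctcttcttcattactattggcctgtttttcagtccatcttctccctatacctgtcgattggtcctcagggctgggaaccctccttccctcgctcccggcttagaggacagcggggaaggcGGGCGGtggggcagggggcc
RHEB: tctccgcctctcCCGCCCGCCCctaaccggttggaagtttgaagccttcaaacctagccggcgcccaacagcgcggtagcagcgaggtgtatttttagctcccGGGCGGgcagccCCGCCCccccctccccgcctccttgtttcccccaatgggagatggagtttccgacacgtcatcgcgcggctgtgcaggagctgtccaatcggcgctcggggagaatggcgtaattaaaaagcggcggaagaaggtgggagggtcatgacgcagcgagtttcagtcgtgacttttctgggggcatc

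The RPTOR window differed in base composition from the others printed. It was 48.0% G and C, against 68.3% for MAPKAP1, 74.0% for RICTOR, 59.3% for MTOR, 62.3% for RHEB and a median of 58.7% over 35116 promoters. It held 0 GC boxes, whereas MAPKAP1 held 1, RICTOR 4, MTOR 2 and RHEB 4, and 45.0% of all promoters held at least 1 (matches on both strands, overlapping matches counted separately). The windows of TSC1 and TSC2, whose treated and untreated signals also overlapped, are not printed. TSC1 held 2 GC boxes (61.7% G and C), and TSC2 held 1 in each of its windows (73.0% and 74.7%). RPTOR alone among the 7 held a TATAAA match on either strand (11.5% of all promoters). It was on the other strand, printed as TTTATA, near the upstream end of the window and far from the start site. The CCAAT motif occurred 3 times in MTOR, 2 times in RHEB and 1 time in RICTOR (34.6% of all promoters hold it). These matches are letters in a window, and no binding was measured.

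RPTOR, the scaffold of mTOR complex 1, was lower after cisplatin in all arrays, with treated signals that fell below background. Its signals were 3.94, 4.10 and 3.85 in cisplatin-treated SKOV-3-AA cells, against 8.57, 8.55 and 8.52 in untreated SKOV-3-AA cells. In SKOV-3-DD cells they were 4.18, 4.41 and 4.22 with cisplatin, against 8.61, 8.40 and 8.68 without. In SKOV-3-EV cells they were 4.89, 4.07 and 5.04 with cisplatin, against 8.80, 8.62 and 9.07 without. No treated array came near an untreated one, and the highest treated value, 5.04, was replicate 3 of SKOV-3-EV cells. The log2 fold change was -4.58 with PEA-15AA, -4.29 with PEA-15DD and -4.16 with the empty vector (SE 0.19 each), and -4.34 (SE 0.11) as the mean of the 3 transfections, or 4.92% of the untreated signal. The treated signals lay below background in 9 of 9 arrays, so the size of the difference has only a lower bound. Set against the background of each treated array, RPTOR was at least 2.73-fold lower over all transfections, where the measured difference was 20.3-fold. The same bound was at least 2.95-fold in SKOV-3-AA, 2.45-fold in SKOV-3-DD and 2.82-fold in SKOV-3-EV cells.

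AKT1S1, whose product PRAS40 is the other subunit particular to mTOR complex 1, had slightly higher signals after cisplatin. It had 10.51, 10.52 and 10.40 in treated SKOV-3-AA cells, against 10.22, 10.05 and 10.09 in untreated ones. In SKOV-3-DD cells it had 10.42, 10.49 and 10.12 with cisplatin, against 9.99, 10.20 and 10.13 without. In SKOV-3-EV cells it had 10.56, 10.39 and 10.36 with cisplatin, against 10.10, 10.20 and 9.99 without. Treated and untreated arrays overlapped only in SKOV-3-DD cells, where treated replicate 3 lay among the untreated arrays. The mean log2 fold change was 0.31 (SE 0.071), a signal 124% of that in untreated cells. RPTOR and AKT1S1, which mark complex 1, thus had changes of opposite sign.

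Among the genes chosen, both subunits particular to mTOR complex 2 were lower after cisplatin. MAPKAP1, which encodes SIN1, had signals of 9.21, 9.27 and 9.47 in treated SKOV-3-AA cells, against 12.28, 12.28 and 12.27 in untreated SKOV-3-AA cells. In SKOV-3-DD cells it had 9.81, 10.41 and 9.59 with cisplatin, against 12.24, 12.19 and 12.37 without. In SKOV-3-EV cells it had 10.48, 10.05 and 9.95 with cisplatin, against 12.48, 12.23 and 12.33 without. Treated and untreated arrays did not overlap, the untreated groups lay close together, and the treated SKOV-3-AA arrays were the lowest. The log2 fold change was -2.97 in SKOV-3-AA, -2.33 in SKOV-3-DD and -2.19 in SKOV-3-EV cells (SE 0.18 each), with a mean of -2.49 (SE 0.10), or 17.7% of the untreated signal.

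RICTOR, the scaffold of complex 2, changed less than MAPKAP1. It had 8.20, 8.16 and 8.43 in treated SKOV-3-AA cells, against 9.34, 9.06 and 9.32 in untreated ones. In SKOV-3-DD cells it had 7.85, 7.69 and 8.45 with cisplatin, against 9.47, 9.39 and 9.38 without. In SKOV-3-EV cells it had 8.12, 8.10 and 8.32 with cisplatin, against 9.31, 9.10 and 9.25 without. Treated and untreated arrays did not overlap, and replicate 3 was the highest of the treated arrays in each transfection. The log2 fold change was -0.98 in SKOV-3-AA, -1.42 in SKOV-3-DD and -1.04 in SKOV-3-EV cells (SE 0.16 each), with a mean of -1.14 (SE 0.094), or 45.2% of the untreated signal.

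Of the subunits that both complexes share, MTOR, the kinase itself, was lower in every treated array than in any untreated one. It had 8.82, 8.81 and 8.68 in treated SKOV-3-AA cells, against 10.03, 9.90 and 10.16 in untreated ones. In SKOV-3-DD cells it had 9.00, 9.05 and 8.97 with cisplatin, against 10.07, 10.02 and 10.32 without. In SKOV-3-EV cells it had 9.57, 9.52 and 8.61 with cisplatin, against 10.04, 9.97 and 10.12 without. Treated SKOV-3-EV replicate 3 lay well below the other two of its group and beside the treated SKOV-3-AA arrays. The log2 fold change was -1.26 in SKOV-3-AA, -1.13 in SKOV-3-DD and -0.81 in SKOV-3-EV cells (SE 0.19 each), with a mean of -1.07 (SE 0.11), or 47.7% of the untreated signal. Without treated replicate 3, the value in SKOV-3-EV cells was -0.50.

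MLST8, a small scaffold subunit that binds the kinase domain, had a lowest, median and highest signal of 11.42, 11.76 and 11.87 in the 9 treated arrays, against 11.39, 11.88 and 12.04 in the 9 untreated ones. The ranges overlapped, and the mean log2 fold change was -0.14 (SE 0.080). DEPTOR, the inhibitory subunit of both complexes, had 2.81, 3.02 and 3.13 in treated arrays, against 2.92, 3.11 and 3.48 in untreated arrays. All 18 of these values lay below background, so for DEPTOR no fold is given.

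The 3 genes of the upstream switch showed no separation by treatment. TSC1, the stabilising subunit of the TSC complex, had 11.19, 11.56 and 11.75 (lowest, median and highest) in treated arrays, against 11.34, 11.52 and 11.71 in untreated ones. TSC2, which carries the GTPase-activating domain, had 8.18, 8.75 and 9.00 in treated arrays, against 8.49, 8.81 and 8.99 in untreated ones. RHEB, the GTPase that TSC2 acts on, had 12.56, 12.77 and 12.96 in treated arrays, against 12.50, 12.71 and 12.87 in untreated ones. All 3 pairs of ranges overlapped almost fully. The mean log2 fold change was 0.01 (SE 0.088) for TSC1, -0.15 (SE 0.098) for TSC2 and 0.05 (SE 0.072) for RHEB.

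**Figure D1:**
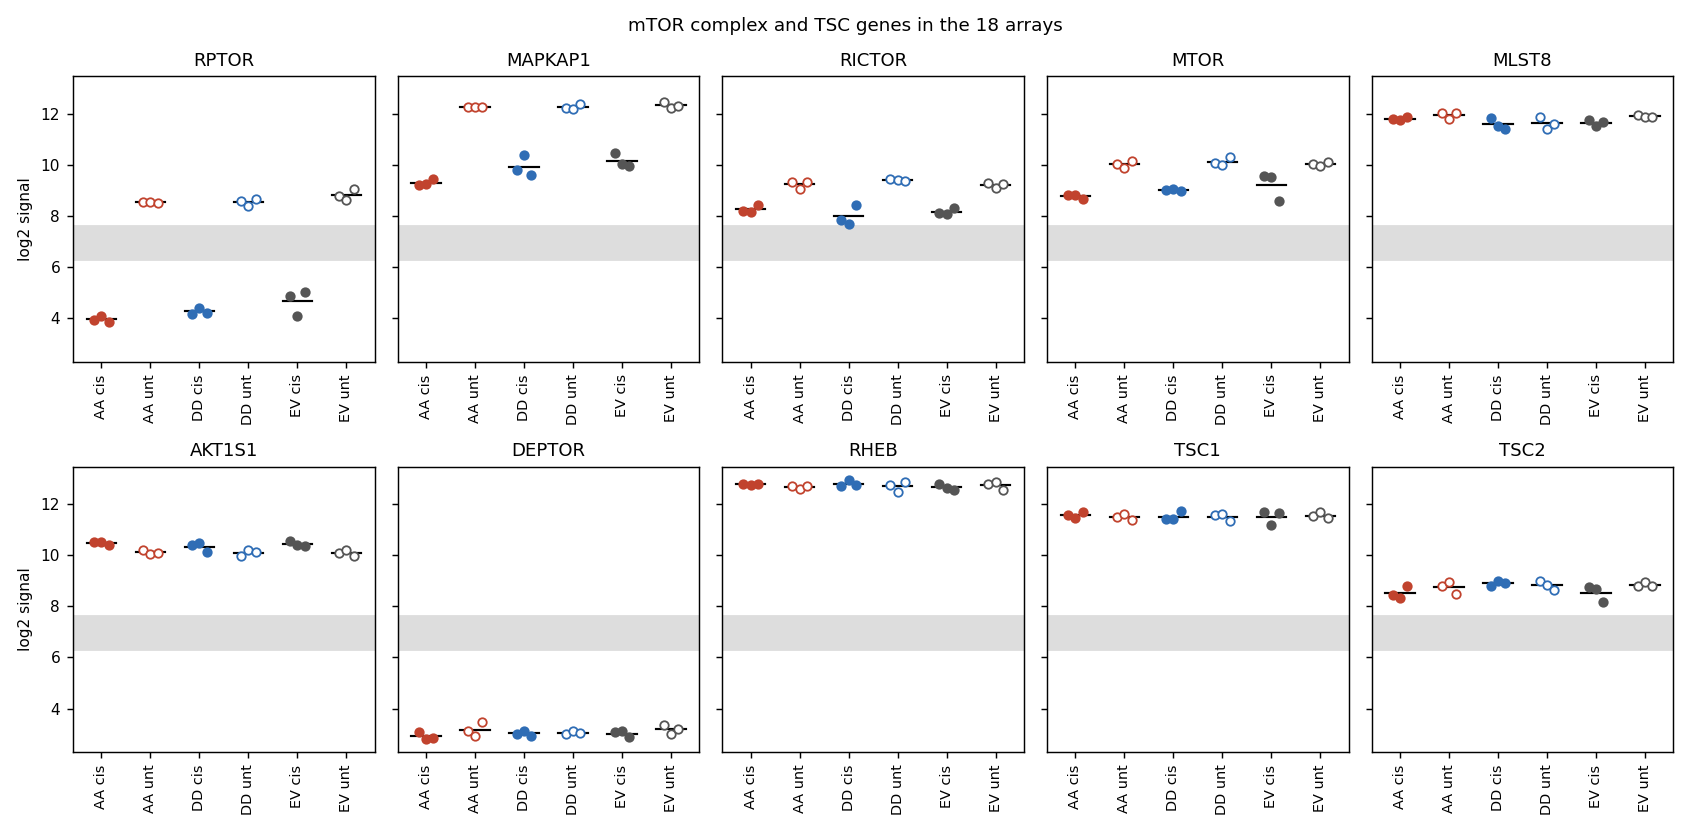
Log2 signal (vertical axis) of each of the 10 genes in the 18 arrays, by transfection (AA, DD, EV for SKOV-3-AA, SKOV-3-DD and SKOV-3-EV), with cisplatin as filled and untreated as open points and a bar at the mean of each group of 3; the grey band is the range of the background level over the arrays, 6.30 to 7.62. Treated RPTOR values, 3.85 to 5.04, and all DEPTOR values lie under the band, and levels are not comparable between genes because each has its own probes.

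Across the comparison of 9 treated with 9 untreated arrays, 4 of the 10 genes (RPTOR, MAPKAP1, RICTOR, MTOR) did not overlap and were lower with cisplatin, against 18% of all probe sets. None of the 10 lay wholly higher, against 13.3%. By transfection the count past an adjusted p under 0.05 in limma (Benjamini-Hochberg over all probe sets) was 5 of 10 in SKOV-3-AA, 4 of 10 in SKOV-3-DD and 5 of 10 in SKOV-3-EV cells, against 45.3%, 42.8% and 50.5% of all probe sets. By the study's rule of an unadjusted p under 0.05 with a 2-fold change it was 3, 4 and 3, against 19.3%, 18.4% and 20.1%. As the genes were chosen with these changes known, nothing is read from the counts. The median change of the 9 genes other than DEPTOR was -0.15, also with RPTOR at its bound, beside 0.10 over all probe sets and -0.13 over the 11426 that lay above background in at least 1 array.

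In the order of measured change, RPTOR (-4.34) stood lowest, followed by MAPKAP1 (-2.49), RICTOR (-1.14) and MTOR (-1.07). By its bound alone, -1.45 on the log2 scale, RPTOR could not be placed below MAPKAP1. RICTOR and MTOR lay within their errors of each other and changed places between the transfections. TSC2 (-0.15), MLST8 (-0.14), TSC1 (0.01) and RHEB (0.05) followed, near 0 and close together, and AKT1S1 (0.31) stood highest. DEPTOR has no place in this order, as its signals were below background.

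**Figure D2:**
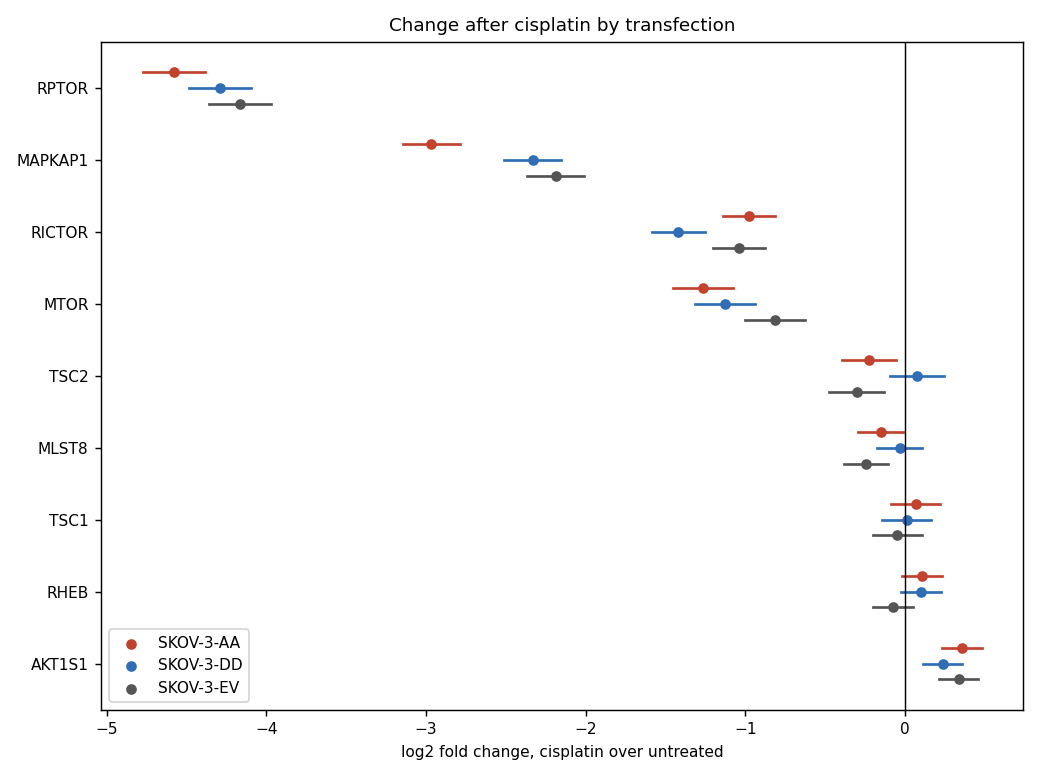
Log2 fold change of each gene, cisplatin over untreated (horizontal axis), in SKOV-3-AA, SKOV-3-DD and SKOV-3-EV cells; points are differences of group means (n = 3 arrays each) and lines are 1 standard error from limma to either side. RPTOR lies between -4.58 and -4.16, values that rest on treated signals below background, MAPKAP1 lies between -2.97 and -2.19, and DEPTOR, below background in all arrays, is left out.

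The genes differ widely in how much genome they span, and this was set beside their change as a property that their choice did not use. By the RefSeq gene table, RPTOR spans 422 kb and MAPKAP1 270 kb, DEPTOR 177 kb, MTOR 156 kb and RICTOR 136 kb. TSC1 spans 54.0 kb, RHEB 53.9 kb, TSC2 41.5 kb, AKT1S1 9.32 kb and MLST8 4 kb. The long genes were those with lower signals, with DEPTOR not measurable. Across the 9 genes without DEPTOR, Spearman's rho between span and mean log2 fold change was -0.80, and it was -0.78 with RPTOR at its bound. The same measure was -0.62 over 9457 genes with untreated signals above the median. It was -0.61 over 9442 genes with a mean over all 18 arrays above the median, and -0.46 over all 17687 genes. All of these points come from the same 18 arrays, and rho is given as a description.

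The 9 genes were then set beside genes of similar span. The span classes hold genes with untreated signals above the median, a choice that favours genes high in untreated cells and leaves out those that rise from low signals. Among 1103 genes of 100 to 200 kb, the median change was -1.31 and the quartiles ran from -1.80 to -0.80, a range that holds both MTOR and RICTOR. Among 319 genes of 200 to 300 kb the median was -1.83 and the lower quartile -2.47, so that MAPKAP1 lay at about that quartile. Among 287 genes of over 300 kb the median was -1.88 and the 10th percentile -3.24. RPTOR lay below that percentile by its measured value, at a distance of -2.47 from the median, whereas its bound of -1.45 lies above the median. The class values are measured changes, with no signal raised to background as in the bound. The place of the bound among them is therefore not read. Classes chosen by the mean over all 18 arrays had medians of -1.28, -1.80 and -1.85 from 100 to 200 kb, from 200 to 300 kb and over 300 kb. With no choice by signal these medians were -0.83, -1.04 and -0.26, and the 10th percentile of genes over 300 kb was -2.64. In the other direction TSC1 and RHEB lay 0.66 and 0.70 above the median of 1691 genes of 50 to 100 kb (-0.65, upper quartile -0.16). TSC2 was at the median of its class (-0.10), AKT1S1 lay -0.10 from the median of genes under 10 kb (0.41), and MLST8 lay below the lower quartile of that class (-0.086).

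**Figure D3:**
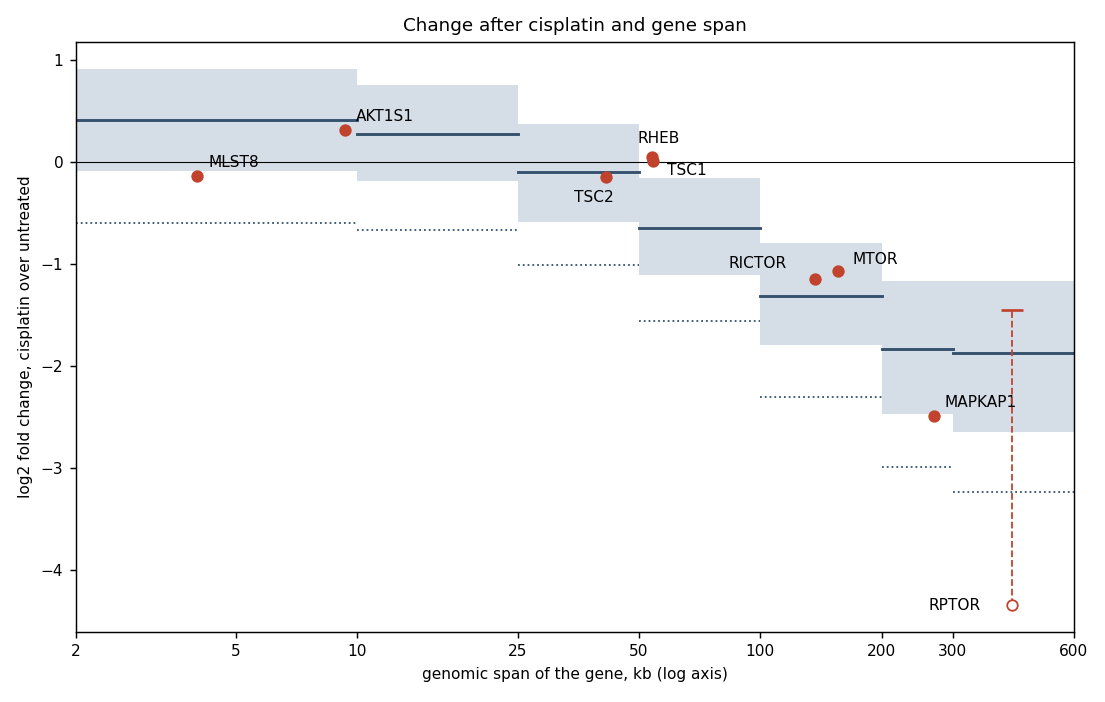
Mean log2 fold change, cisplatin over untreated (vertical axis), against the genomic span of the gene in kb (horizontal log axis); red points are 9 of the genes (DEPTOR, below background, is left out; RPTOR is open, with a dashed line up to its bound of -1.45), blue lines, boxes and dotted lines are the median, the quartiles and the 10th percentile of genes above the median untreated signal in each span class. RPTOR, measured at -4.34, lies below the 10th percentile of its class (-3.24), while TSC1 and RHEB lie above the upper quartile of theirs (-0.16).

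The genes whose signals over the 18 arrays were most like RPTOR by Pearson's r were FCHSD2, UBE2R2, NAV1, PDGFC and OSBPL10, each with r = 0.993. Their log2 fold changes after cisplatin were -3.67, -1.68, -3.45, -2.62 and -1.88, and their spans 306, 105, 288, 211 and 417 kb. Within the mTOR genes, MAPKAP1 followed RPTOR closest (r = 0.982, rank 226 of all probe sets), then RICTOR (0.936, rank 1866) and MTOR (0.913, rank 2451). At these ranks, many probe sets outside the mTOR genes were closer to RPTOR. MLST8 (0.386), TSC2 (0.301), TSC1 (-0.016) and RHEB (-0.22) did not follow it closely, and AKT1S1 ran opposite (-0.827). All of these coefficients hold the split between treated and untreated arrays, which the genes share, and the treated RPTOR signals in them lie below background.

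In untreated cells, none of the 10 genes passed the test for a difference between transfections. Differences from SKOV-3-EV cells ran from -0.29 (RPTOR) to 0.05 (MLST8) in SKOV-3-AA cells and from -0.27 (MLST8) to 0.20 (RICTOR) in SKOV-3-DD cells. RPTOR averaged 8.54 ± 0.03 in untreated SKOV-3-AA, 8.56 ± 0.14 in SKOV-3-DD and 8.83 ± 0.23 in SKOV-3-EV cells (SD, n = 3 each). The difference was -0.29 (95% interval -0.69 to 0.12) for SKOV-3-AA and -0.27 (-0.67 to 0.14) for SKOV-3-DD cells. Shifts within these intervals remain possible. For PEA-15AA against PEA-15DD the widest difference was in MLST8, with 11.96 ± 0.13 and 11.63 ± 0.24 (SD, n = 3 each), a difference of 0.32 (SE 0.14, limma adjusted p = 1). In all 3 untreated comparisons 0 of the 10 genes and 0 of 21448 probe sets passed an adjusted p under 0.05. At an unadjusted p under 0.05 there were 0, 0 and 1 of the 10 genes for PEA-15AA against vector, PEA-15DD against vector and PEA-15AA against PEA-15DD, beside 3.09%, 5.47% and 3.99% of all probe sets.

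Under cisplatin, MAPKAP1 was the gene in which the transfections differed most. It averaged 9.31 ± 0.14 in SKOV-3-AA, 9.94 ± 0.42 in SKOV-3-DD and 10.16 ± 0.28 in SKOV-3-EV cells (SD, n = 3 each). The 3 SKOV-3-AA arrays lay below all arrays of the other transfections. Against the vector arrays alone, 8.34% of all probe sets were lower with PEA-15AA with no overlap. The share that lay below both other transfections is not given here. PEA-15AA minus vector was -0.85 (SE 0.18, 95% interval -1.22 to -0.47), which had an adjusted p of 0.113 in limma and did not pass. With array weights in the fit the difference was -0.90 and passed (adjusted p = 0.0211), and it passed too when the spread was estimated without SKOV-3-DD replicate 2 (0.0227) or without replicates 2 and 3 (0.0155). Over all alternatives its adjusted p ran from 0.0155 to 0.33. In the fits where MAPKAP1 passed, the share of all probe sets that passed is not given here. Its pass is therefore not read as particular to it. PEA-15AA minus PEA-15DD was -0.62 (SE 0.18, limma adjusted p = 0.551), and PEA-15DD minus vector was -0.22 (SE 0.18, adjusted p = 0.842).

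The other genes differed less between the transfections under cisplatin. MTOR averaged 8.77 ± 0.079 in SKOV-3-AA, 9.01 ± 0.039 in SKOV-3-DD and 9.23 ± 0.54 in SKOV-3-EV cells (SD, n = 3 each), a difference of -0.46 (SE 0.19, adjusted p = 0.328) for SKOV-3-AA against SKOV-3-EV. The wide spread of the SKOV-3-EV group is its replicate 3, and without that array the difference was -0.78 (adjusted p = 0.0577). Without replicate 1 of that group it was -0.29, and without replicate 2 it was -0.32. TSC2 averaged 8.53 ± 0.25 in SKOV-3-AA, 8.90 ± 0.098 in SKOV-3-DD and 8.54 ± 0.31 in SKOV-3-EV cells, and SKOV-3-DD cells were 0.36 (SE 0.17, adjusted p = 0.642) above SKOV-3-EV cells. RPTOR averaged 3.97 ± 0.13, 4.27 ± 0.12 and 4.67 ± 0.52 in treated SKOV-3-AA, SKOV-3-DD and SKOV-3-EV cells. All of these RPTOR signals lay below background, so no difference between them is quantified.

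For SKOV-3-AA against SKOV-3-EV under cisplatin, 0 of the 10 genes and 0 of 21448 probe sets passed an adjusted p under 0.05. At an unadjusted p under 0.05 MAPKAP1 and MTOR were lower in SKOV-3-AA cells, 2 of the 8 genes with treated signals above background. Counting RPTOR, which lay below background in both groups, it was 3 of the 10 genes, beside 12.5% of all probe sets. That share also holds probe sets below background. For SKOV-3-DD against SKOV-3-EV the adjusted counts were likewise 0 and 0, with TSC2 alone at the unadjusted threshold beside 7.79%. For SKOV-3-AA against SKOV-3-DD they were 0 and 0, with MAPKAP1 and TSC2 at that threshold beside 6.98%.

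**Figure D4:**
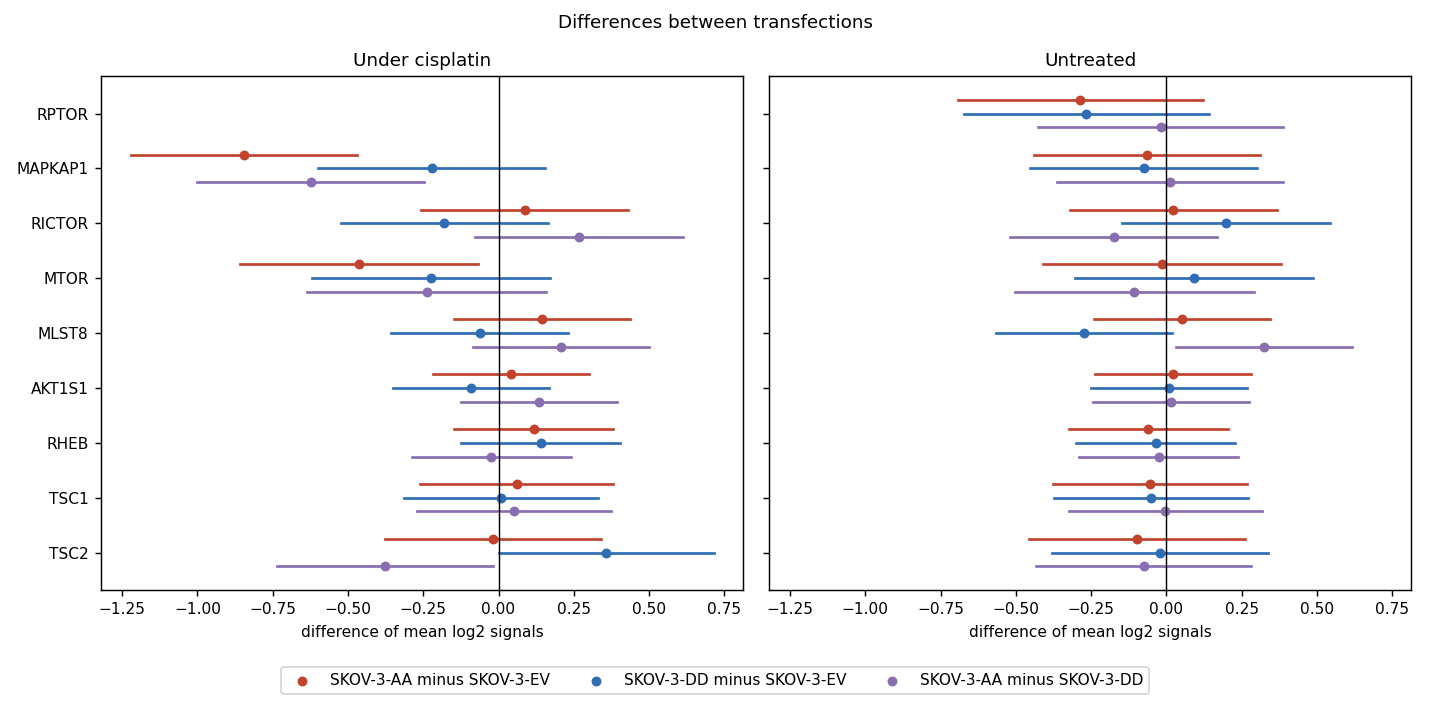
Difference of mean log2 signals between transfections (horizontal axis) for the 3 pairs in the legend, under cisplatin (left) and untreated (right); points are differences of group means (n = 3 arrays each) and lines are 95% intervals from limma. MAPKAP1 under cisplatin, at -0.85 for SKOV-3-AA minus SKOV-3-EV, lies farthest from 0; treated RPTOR and all DEPTOR signals were below background and are left out.

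Whether the response to cisplatin itself differed between transfections was tested as an interaction. For MAPKAP1 the change was -2.97 in SKOV-3-AA against -2.19 in SKOV-3-EV cells, a difference of -0.78 (SE 0.25, 95% interval -1.31 to -0.25, limma adjusted p = 0.571), and it differed by -0.64 (SE 0.25, adjusted p = 0.985) from SKOV-3-DD cells. For RICTOR the change was -0.98 with PEA-15AA and -1.42 with PEA-15DD, a difference of 0.44 (SE 0.23, adjusted p = 0.985). For MTOR the change in SKOV-3-AA differed from that in SKOV-3-EV cells by -0.45 (SE 0.27, adjusted p = 0.772). None of the 10 genes and 0 of 21448 probe sets passed for any of the 3 interactions. At an unadjusted p under 0.05 there was 1 of the 10 (MAPKAP1) for SKOV-3-AA minus SKOV-3-EV, 0 for SKOV-3-DD minus SKOV-3-EV and 1 (MAPKAP1) for SKOV-3-AA minus SKOV-3-DD, beside 6.9%, 7.59% and 4.7% of all probe sets.

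Around the complexes, 98 further genes of the mTOR pathway were listed by function, and 88 were measured. Of these, 8 lay below background in all 18 arrays (TELO2, KPTN, CASTOR1, SESN3, INSR, TFEB, SGK2 and GRB10) and are not counted. As the mean of the transfections, 25 of the other 80 rose after cisplatin, 42 fell and 13 did not pass (adjusted p under 0.05). Over all probe sets 36.5% rose and 28.7% fell, and over the 11426 above background in at least 1 array 35.3% rose and 46.3% fell. The lists were drawn up with earlier results of these data known and are given as counts, to be read beside these shares. For 16 of the 80 genes the treatment group with the lower signals was above background in under 5 of its 9 arrays, so that the change has only a lower bound. The median change of the 80 was -0.45 as measured and -0.15 with those genes at their bounds. Of the 16 genes with a bound, 14 are counted as fallen, and for 5 the bound gives no fold. DEPDC5, IRS1, INPP4B and DDIT4L are counted as fallen although their bound is 0. The median span was 84.3 kb for the genes that fell, 21.6 kb for those that rose and 22.7 kb for those that did not pass. In comparisons of transfections and interactions 0 of the 80 passed. At an unadjusted p under 0.05 there were 0 to 11 of them, the most being 11 (13.8%) for SKOV-3-AA against SKOV-3-EV under cisplatin, beside 12.5% of all probe sets.

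Among 6 partners and assembly factors, 2 rose, 3 fell and 1 did not pass (median -0.31), and with quantile normalization 3 rose and 2 fell. PRR5L, which binds rictor, fell by 1.76 (SE 0.12), PRR5, a related subunit of complex 2, fell by 0.59 (SE 0.12), and TBC1D7, the third subunit of the TSC complex, fell by 0.62 (SE 0.097), all on the log2 scale. TTI1, which works with TELO2 in folding mTOR, rose by 1.00 (SE 0.076). RHEBL1, a close relative of RHEB, was at least 1.54-fold higher, with signals above background in 6 of 9 treated arrays and in 0 of 9 untreated ones. PRR5 was above background in 7 of 9 treated arrays.

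Of 12 genes of the lysosomal platform that recruits mTOR complex 1, 8 rose and 4 fell (median 0.34). FLCN, the GTPase-activating protein for RagC and RagD, rose by 0.85 (SE 0.10) on the log2 scale, and the Ragulator subunits LAMTOR5 and LAMTOR3 rose by 0.74 (SE 0.070) and 0.65 (SE 0.11). FNIP1, the partner of folliculin, fell by 1.99 (SE 0.10). SLC38A9, the lysosomal arginine sensor, was above background in 3 of 9 treated arrays and at least 2.43-fold lower. In the GATOR, KICSTOR and sensor list 5 of 13 rose, 6 fell and 2 did not pass (median 0.06). With centred arrays, and also with quantile normalization, 6 of this list rose and 5 fell. WDR59 of GATOR2 fell by 2.01 (SE 0.072) and NPRL3 of GATOR1 fell by 1.67 (SE 0.092). The arginine sensor paralogue CASTOR2, above background in 2 of 9 treated arrays, was at least 2.09-fold lower. SESN2, a stress-induced leucine sensor, rose by 1.78 (SE 0.089) and WDR24 of GATOR2, above background in 8 of 9 treated and 5 of 9 untreated arrays, by 1.12 (SE 0.12).

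Of 11 genes of the insulin receptor, PI3K and AKT arm, 8 fell, 2 rose and 1 did not pass, with a median of -1.17 as measured and -0.69 with 3 genes at their bounds. PIK3CB, a catalytic subunit of PI3K, fell by 2.75 (SE 0.13) and PHLPP1, an AKT phosphatase, fell by 2.13 (SE 0.10) on the log2 scale. IGF1R, the receptor for IGF-1, was at least 2.37-fold lower, with treated signals below background in 9 of 9 arrays. IRS2, an adaptor of the insulin receptor, rose by 0.99 (SE 0.16) and AKT1 by 0.33 (SE 0.062). Of 13 genes of AMPK, LKB1 and stress input, 8 fell, 2 rose and 3 did not pass (median -0.54 as measured and -0.44 with bounds), and with centred arrays 8 fell and 4 rose. GSK3B, a kinase that phosphorylates TSC2, fell by 2.63 (SE 0.081), the AMPK subunit PRKAG2 fell by 2.03 (SE 0.097) and the LKB1 partner CAB39 fell by 1.93 (SE 0.11), while the AMPK subunits PRKAB2 and PRKAB1 rose by 1.13 (SE 0.11) and 0.77 (SE 0.064).

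Downstream, 4 of 10 translation genes fell, 3 rose and 3 did not pass (median -0.05), and with centred arrays 4 fell and 5 rose. EEF2K, the kinase of elongation factor 2, was above background in 1 of 9 treated arrays and at least 2.79-fold lower. The cap-binding protein EIF4E fell by 1.25 (SE 0.097) on the log2 scale and LARP1, which binds messages of ribosomal proteins, fell by 0.88 (SE 0.067). RPS6KB2, which encodes a second S6 kinase, rose by 1.09 (SE 0.089) and the EIF4E inhibitor EIF4EBP2 by 0.58 (SE 0.071). Of 9 autophagy and lysosome genes 5 fell, 2 rose and 2 did not pass (median -0.43 as measured and -0.28 with bounds), and with quantile normalization 4 fell and 3 rose. UVRAG, a subunit of a VPS34 lipid kinase complex, was at least 2.75-fold lower, with treated signals of 3.88 to 5.25, all below background, against 8.18 to 9.00 in untreated arrays. The autophagy regulators AMBRA1 and RB1CC1 fell by 1.67 (SE 0.10) and fell by 1.31 (SE 0.10), in that order, whereas ATG101 and ULK1 of the kinase complex that starts autophagy rose by 1.66 (SE 0.10) and 0.65 (SE 0.12).

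The last list held mTOR complex 2 substrates together with feedback genes and other outputs of the pathway. Its 6 counted genes were SGK1, SGK3, PRKCA, NDRG1, SREBF1 and CAD. Of these, 4 fell, 1 rose and 1 did not pass (median -1.12 as measured and -0.90 with bounds). SREBF1 and CAD are not particular to complex 2, so these counts and medians do not describe complex 2 alone. SGK1, a kinase that complex 2 phosphorylates, was the gene that rose. Its signals were 14.63 to 15.30 in the 9 treated arrays, against 10.23 to 10.56 in the 9 untreated ones, a log2 fold change of 4.55 (SE 0.089), the highest of the 80. Its span of 149 kb lies in the class in which the median gene above the median untreated signal changed by -1.31. That span is of the whole RefSeq gene record. Which transcripts of SGK1 the cells made, and how long those are, is not known here, so its class is uncertain. PRKCA, a further kinase substrate, was at least 3.06-fold lower with treated signals below background in all arrays. NDRG1, whose product SGK1 phosphorylates, fell by 1.71 (SE 0.092) on the log2 scale. SREBF1, a lipogenic transcription factor, was above background in 1 of 9 treated arrays and at least 1.74-fold lower.

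**Figure D5:**
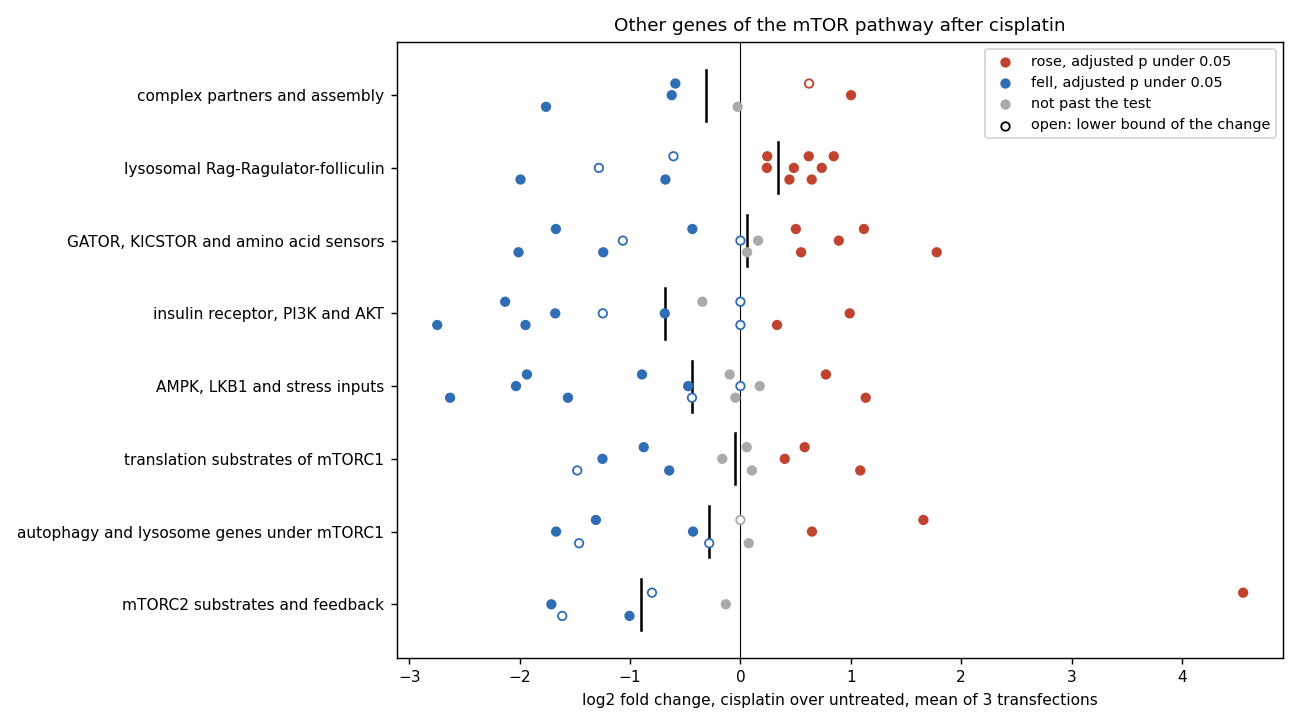
Mean log2 fold change, cisplatin over untreated (horizontal axis), of 80 genes in 8 lists of the mTOR pathway (vertical axis); each point is a gene, coloured by whether it rose, fell or did not pass an adjusted p under 0.05 in limma, open points are lower bounds (0 where the bound gives no fold), and the black bar is the list's median with bounds. SGK1, at 4.55, lies farthest to the right. The list named for mTOR complex 2 substrates and feedback, which also holds genes not particular to complex 2, has the lowest median, -0.90.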

How the data were processed

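Clariom S arrays of 18 SKOV-3 samples were used, 3 in each of 6 groups. With SST-RMA (Transcriptome Analysis Console) the authors summarised and normalised them and deposited 1 log2 signal per probe set and array. Probe coordinates are not given, as the build of their annotation is not stated in the sources. Of 24351 features, 2903 controls were left out and 21448 probe sets were tested, of which 17709 carry a gene symbol in the platform annotation and 3739 carry none. Each of the 10 genes has 1 probe set.

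The deposited log2 values were compared with limma 3.58.1 (R 4.3.3) in 1 model with a mean for each group (12 residual and 5.47 prior degrees of freedom), with Benjamini-Hochberg adjustment over all probe sets. The procedure was tested on simulated data. Spans and promoters come from RefSeq tables of GRCh38.p14. A bound sets the measured mean of the brighter group against the mean of the dimmer one, in which each signal under the 95th percentile of its array's negative controls is raised to it. The 10 genes and the pathway lists were chosen with earlier results of these data known. Named besides them are PEA15, the 5 genes most like RPTOR, and from each list up to 3 genes with the largest change in its main direction and up to 2 in the other. The alternatives were centring on array medians, quantile normalization, 2 filters on low signal, trend and robust options, array weights, the replicate number as a block, a fit of the compared groups alone, the study's thresholds, each array left out in turn, and both distant SKOV-3-DD arrays left out. Figures were drawn with matplotlib 3.10.9 (Python 3.11.15).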

Additional observations from a re-analysis of the deposited data

How the results depend on the processing

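Counts of the 10 genes past an adjusted p under 0.05 kept their value, or lay within 1.5 times of it, under every alternative with the following exceptions. For SKOV-3-AA against SKOV-3-EV under cisplatin the count was 1 (MAPKAP1) with array weights, whose iteration stopped before convergence, 1 without SKOV-3-DD cisplatin replicate 2, and 1 without SKOV-3-DD cisplatin replicates 2 and 3, against 0; those arrays enter this comparison only through the shared estimate of the spread. By the study's rule (unadjusted p under 0.05 with a 2-fold change), 3 genes passed after cisplatin in SKOV-3-AA (MTOR, RPTOR, MAPKAP1) and 3 in SKOV-3-EV cells (RPTOR, RICTOR, MAPKAP1), against 5 each. With each array left out in turn, the count ran from 0 to 1 for SKOV-3-AA against SKOV-3-EV under cisplatin, from 4 to 5 for cisplatin in each transfection and from 5 to 6 for their mean, from which nothing is read, and was 0 for all other comparisons of transfections and all interactions. Whether the replicate number pairs the arrays was checked by the correlation of deviations from the group means. Of 27 same-numbered pairs 8 correlated above 0.1 (range -0.025 to 0.18); all 3 pairs did so for untreated SKOV-3-AA with SKOV-3-DD (0.10 to 0.16), and not all 3 in any of the other 8 comparisons of groups. With the replicate block 5, 4, 5 and 5 genes passed after cisplatin in SKOV-3-AA, SKOV-3-DD, SKOV-3-EV cells and their mean, and 0 in all other comparisons. The share of all probe sets is not given for array weights, left-out arrays or the replicate block. Nothing is read from these counts.

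With centred arrays the median change after cisplatin was 0.30 over all probe sets, against 0.10 as deposited. Over the 9 genes without DEPTOR it was 0.05, against -0.15. TSC1 (0.21) and RHEB (0.24) then stayed below the median of all probe sets. Both then passed an adjusted p under 0.05 in limma, as did 17039 of 21448 probe sets, and nothing is read from it. With quantile normalization the mean change was -0.83 for MTOR, -0.86 for RICTOR and 0.13 for TSC2, against -1.07, -1.14 and -0.15 as deposited. Signals under the negative controls limit RPTOR after cisplatin and DEPTOR throughout. Span classes chosen by the mean over all arrays, or with no choice by signal, and the bounds for pathway genes above background in few arrays were added after seeing the data.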
